A study of Mus musculus with 17 samples.

Results

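The genes described here are the Wnt ligands, their Frizzled receptors and Lrp coreceptors, the R-spondins and the enzymes of receptor turnover, the secreted antagonists, and the Axin, transcription factor and target genes that report on the pathway. They were chosen by gene symbol among the protein-coding genes of the expression table, by a rule that names no measured value. Earlier results of these data were known when that rule was chosen. The members are 53 of the 54532 genes listed and of the 22046 protein-coding genes. By role they are 19 Wnt ligands, 10 Frizzled receptors, 2 coreceptors, 6 genes of the R-spondin and receptor turnover group, 11 secreted antagonists, and 5 genes of Axin, transcription factors or targets. Of these, 45 were tested and 36 were called in at least 1 of 12 comparisons. The 8 that stayed under the filter of 1 TPM in at least 2 libraries were *Wnt1*, *Wnt8b*, *Wnt9b*, *Wnt16*, *Rspo2*, *Dkk2*, *Dkk4* and *Wif1*, and the highest level of any of them in any library was 1.20 TPM, for *Wif1*.

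RNA was sequenced in bulk from R1/E mouse embryonic stem cells in 17 libraries. Wild-type and *Usb1* knockout cells were kept in self-renewal culture without RA, here called day 0, or treated with retinoic acid (RA), which drives differentiation, for 1 day or 3 days. There were 2 wild-type libraries at day 0 and 3 libraries in each of the other 5 groups. The knockout was made by CRISPR/Cas9, and 1 line (KO-1) gave all 9 of its libraries, so an effect of the clone and an effect of the knockout cannot be told apart. USB1 is the enzyme that trims the uridines ending U6 snRNA. The labels name no other allele or agent. No library without RA is among those of day 1 or day 3, so RA cannot be told apart from time or a change of culture.

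Wnt ligands are lipid-modified secreted proteins that bind a Frizzled receptor together with *Lrp5* or *Lrp6*, which stops the destruction of β-catenin by the Axin complex and lets β-catenin work with TCF and LEF factors on target genes. R-spondins raise the signal by removing *Znrf3* and *Rnf43*, ubiquitin ligases that take Frizzled off the cell surface, while Dkk, Sfrp and *Notum* proteins act outside the cell against ligands or coreceptors. In mouse embryonic stem cells the pathway is known to favour self-renewal, and in the embryo it acts in the formation of the primitive streak and in the posterior body.

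Promoters of *Dkk1*, *Sp5*, *Fzd7* and *Sfrp5* are shown because the first 3 held a TCF/LEF core and rose with RA, and because *Sfrp5*, which also rose, was lower in the knockout at day 1 and at day 3. They are RefSeq sequences (GRCm38.p6), written 5′ to 3′ on the gene's strand as the 250 bases before the annotated start, with matches to the core in capitals. Searches for the core on both strands used the form CTTTGAA, the closely related form CTTTGAT, a further form CTTTGTA, and finally the form CTTTGTT, which reads AACAAAG when it lies on the opposite strand.
Dkk1: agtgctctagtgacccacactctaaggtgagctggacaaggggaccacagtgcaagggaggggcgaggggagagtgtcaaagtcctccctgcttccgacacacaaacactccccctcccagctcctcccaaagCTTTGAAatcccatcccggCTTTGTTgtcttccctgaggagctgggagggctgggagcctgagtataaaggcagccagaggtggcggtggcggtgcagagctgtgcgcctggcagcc
Sp5: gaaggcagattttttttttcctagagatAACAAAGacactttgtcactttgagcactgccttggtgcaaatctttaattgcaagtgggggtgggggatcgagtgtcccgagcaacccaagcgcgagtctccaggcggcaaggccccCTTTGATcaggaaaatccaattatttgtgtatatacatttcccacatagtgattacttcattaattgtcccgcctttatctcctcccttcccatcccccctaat
Fzd7: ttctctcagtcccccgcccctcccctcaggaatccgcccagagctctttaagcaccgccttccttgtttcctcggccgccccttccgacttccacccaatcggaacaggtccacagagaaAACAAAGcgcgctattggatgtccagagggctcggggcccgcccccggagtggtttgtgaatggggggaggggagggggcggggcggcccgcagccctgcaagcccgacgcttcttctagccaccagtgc
Sfrp5: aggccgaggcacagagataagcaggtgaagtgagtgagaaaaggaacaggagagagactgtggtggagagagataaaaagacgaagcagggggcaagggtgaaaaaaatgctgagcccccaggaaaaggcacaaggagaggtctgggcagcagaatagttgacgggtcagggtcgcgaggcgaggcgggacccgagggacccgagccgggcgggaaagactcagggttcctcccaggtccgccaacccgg
These lie at chr19:30549497-30549746 (minus strand), chr2:70474673-70474922 (plus strand), chr1:59481897-59482146 (plus strand) and chr19:42202253-42202502 (minus strand). The *Dkk1* matches begin 117 and 98 bases before the start, those of *Sp5* 222 and 104 bases before it, and that of *Fzd7* 130 bases before it. In the window from 250 bases before to 50 bases after the start, the core was found in 7 of the 34 members with a RefSeq promoter (20.6%; *Dkk1*, *Fzd7*, *Lef1*, *Sp5*, *Wnt11*, *Wnt3* and *Wnt5b*) and in 18.9% of all 27025 genes in the same table. A direct repeat of AGGTCA or AGTTCA spaced by 5 bases, or of AGGTCA spaced by 2, the form that RA receptors bind, was found in 0 of the 34 members and in 0.0555% of all genes.

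*Usb1* itself was lower in every knockout library than in every wild-type library of the same day, at 16.2 ± 1.47 (SD, n = 3) against 38.5 ± 1.99 TPM (n = 2) at day 0, 20.2 ± 1.52 against 52.5 ± 4.21 TPM at day 1, and 17.4 ± 2.86 against 33.8 ± 1.94 TPM at day 3. Reads on genes, recovered from TPM and exon length, ranged from 15404379 to 17300189 over the libraries. Wild-type replicate 1 at day 0 stood furthest apart, with 239 genes listed at 1 read, and it listed 21 of the 53 Wnt genes at 0 against 5 in replicate 2. A value of 0 in replicate 1 is therefore not read as absence. Wild-type day 0 replicate 2 listed 1341 genes at 1 read and knockout day 3 replicate 1 listed 1212, against 2135 to 2448 in the other libraries. Both wild-type libraries of day 0 were thus low in such genes, and every comparison with that group carries this. The summed level of 6 embryonic stem cell markers fell from 5108 TPM at day 0 to 329 TPM at day 3 in wild-type cells and from 5223 to 541 TPM in knockout cells, and each of the 6 was called lower in both genotypes. Over 8 markers of primitive and visceral endoderm the summed level went from 15.2 to 635 TPM and from 6.53 to 303 TPM, and each of the 8 was called higher in both.

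More members were called with RA than between the genotypes. A gene was called when limma on log2(TPM + 1) gave an adjusted p under 0.05 and a change of at least 2-fold, and fold changes below are on that scale, which understates the change of low genes. In wild-type cells at day 3 against day 0, 20 of the 45 tested members rose (44.4%) and 7 fell (15.6%), beside 16.1% and 9.68% of all 21871 genes tested. Their median log2 fold change was 0.75, also with the 2 members listed at 0 in both wild-type day 0 libraries set at the lower bound of their change, and that of all genes was 0.10. In knockout cells 23 rose and 6 fell, beside 13.8% and 8.04% of all genes, with medians of 1.05 and 0.03. At day 1 against day 0 the counts were 11 higher and 6 lower in wild-type cells, beside 9.99% and 3.88% of all genes, with medians of 0.22 and 0.17. In knockout cells at day 1 they were 6 higher and 5 lower, beside 4.07% and 2.87%, with medians of 0.02 and 0.02. From day 1 to day 3, 20 rose and 6 fell in wild-type cells, beside 7.7% and 7.54% of all genes, and 22 rose and 5 fell in knockout cells, beside 9.6% and 5.73%. Comparisons of a genotype with its own day 0 share those libraries, so their counts are given side by side. In bulk RNA, fewer cells of a type and less RNA per cell cannot be told apart.

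**Figure D1:**
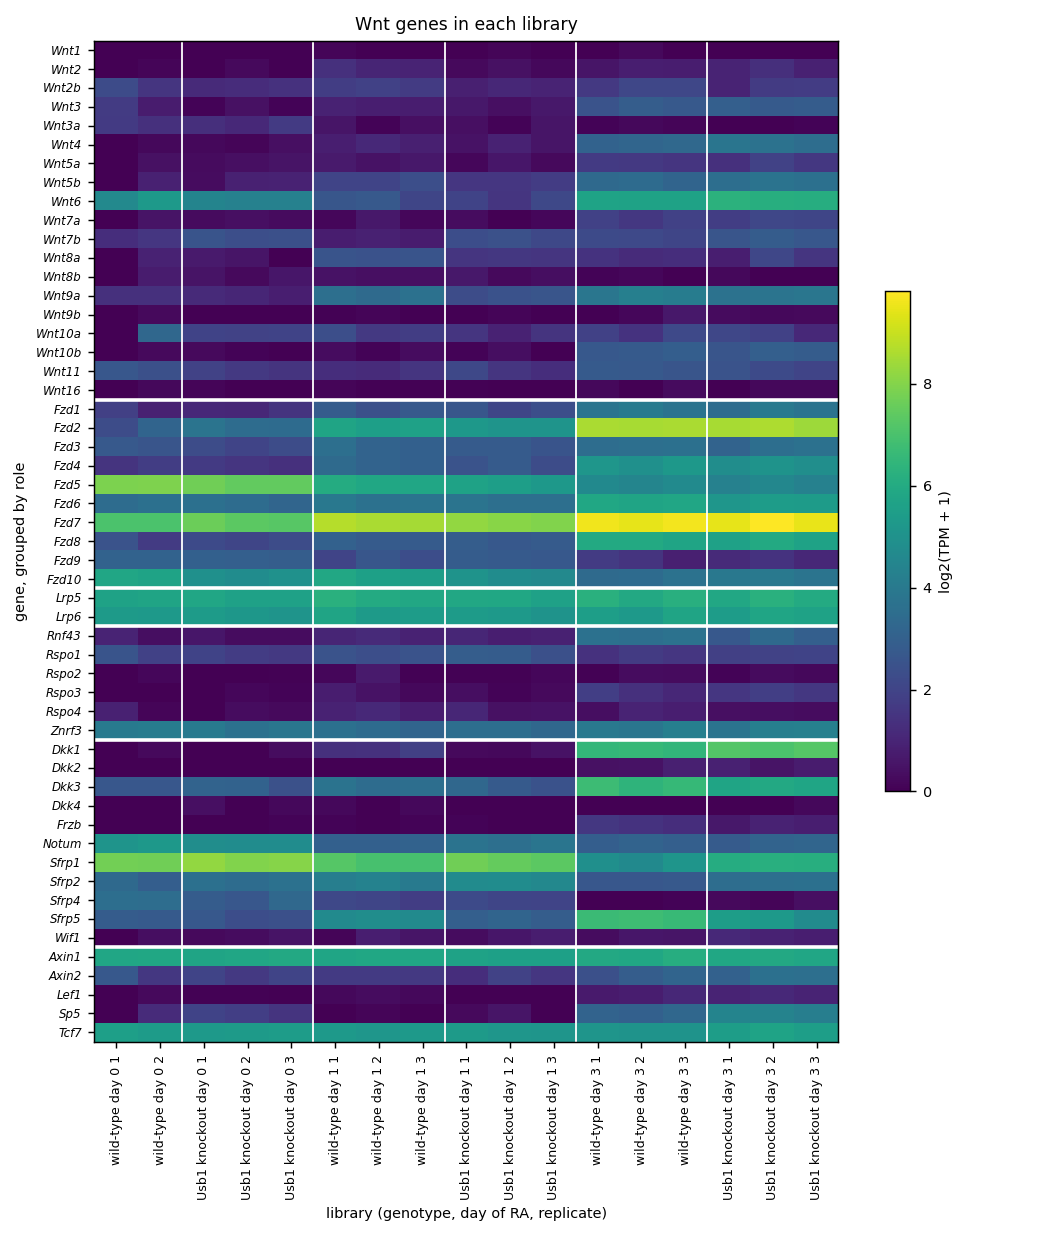
Levels of all 53 Wnt genes as log2(TPM + 1) in each of the 17 libraries, with genes in rows ordered by role (white lines divide roles). Libraries are in columns ordered by day, with wild-type before knockout within each day (white lines divide groups). Brighter is higher. *Fzd5* and *Sfrp1* are bright at day 0 and dim at day 3, *Fzd2*, *Fzd8*, *Dkk1*, *Dkk3* and *Sfrp5* do the reverse, and *Lrp5*, *Lrp6* and *Axin1* stay at one brightness.

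Among the 19 Wnt ligands, 15 were tested. In wild-type cells at day 3 against day 0, 7 rose, 1 fell and 7 were not called, and in knockout cells 9 rose, 1 fell and 5 were not called. The summed level of the 19 was 51.3 ± 16.2 TPM (SD, n = 2) in wild-type cells at day 0, 35.8 ± 2.23 at day 1 and 116 ± 3.65 at day 3 (n = 3). In knockout cells it was 35.5 ± 1.38, 22.3 ± 0.786 and 142 ± 5.05 TPM (n = 3). The lowest library at day 3 (112 TPM) was above the highest at day 0 (62.7 TPM). These sums were lower in every knockout library than in every wild-type library at days 0 and 1 and higher at day 3, and no test was run on them.

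*Wnt6* is a ligand known from RA-treated teratocarcinoma cells that turn into endoderm. In wild-type cells *Wnt6* was at 23.4 and 38.2 TPM at day 0, at 5.11, 5.62 and 3.11 TPM at day 1, then 50.5, 49.8 and 50.1 TPM by day 3. Knockout cells had 20.3, 18.8 and 18.9 TPM at day 0, then 2.90, 1.85 and 3.41 TPM, then 77.6, 69.8 and 68.5 TPM. It thus dipped at day 1 in each genotype and ended above its start, with no overlap between the days within a genotype. At day 1 it fell by 2.49 ± 0.22 (SE) on the log2 scale in wild-type cells (adjusted p = 7.57e-07) and fell by 2.47 ± 0.20 in knockout cells (adjusted p = 3.35e-07). At day 3 against day 0 the log2 fold change was 1.84 ± 0.20 in knockout cells (adjusted p = 1.45e-06) and 0.72 ± 0.22 in wild-type cells, which is under 2-fold (adjusted p = 0.0121). Its share of the ligand sum was 59.8% at day 0, 12.9% at day 1 and 43.1% at day 3 in wild-type cells, and 54.5%, 12.1% and 50.5% in knockout cells.

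At day 1 the leading ligand was *Wnt9a*, which is known from joint formation, with 30.0% of the ligand sum in wild-type and 20.2% in knockout cells. Wild-type libraries had 1.57 and 1.56 TPM of *Wnt9a* at day 0, 11.2, 9.38 and 11.7 TPM at day 1, then 13.3, 17.6 and 16.6 TPM by day 3. In knockout libraries it was at 1.24, 1.07 and 0.782 TPM, then 3.82, 4.57 and 5.07 TPM, then 12, 12.6 and 13.5 TPM. Each later group lay above the one before it, and the knockout was behind at day 1. The rise to day 1 was 2.19 ± 0.16 in wild-type (adjusted p = 1.01e-07) and 1.44 ± 0.14 in knockout cells (adjusted p = 3.07e-06). By day 3 it was 2.71 ± 0.16 and 2.76 ± 0.14.

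*Wnt4* and *Wnt5b* also rose. *Wnt4*, which acts in the kidney and the female gonad, was at 0 and 0.162 TPM in wild-type cells at day 0, at 0.786, 1.22 and 0.840 TPM at day 1, then 7.52, 8.31 and 8.85 TPM by day 3, with a log2 fold change of 3.10 ± 0.19 by day 3 (adjusted p = 5.24e-09). Its knockout values were 0.155, 0.0998 and 0.311 TPM, then 0.405, 0.918 and 0.458 TPM, then 12.9, 12.2 and 10.3 TPM, with a log2 fold change of 3.43 ± 0.17 (adjusted p = 4.54e-10). In both genotypes the day 3 libraries stood above all others. *Wnt5b*, a ligand that mostly acts without β-catenin, had 0 and 0.851 TPM in wild-type cells at day 0, 3.06, 3.04 and 4.15 TPM at day 1, then 9.12, 9.71 and 8.04 TPM by day 3. Its knockout values were 0.245, 0.868 and 0.900 TPM, then 1.92, 1.91 and 2.31 TPM, then 10.7, 12.3 and 11.4 TPM. Its groups ran in the order of the days without overlap, and its log2 fold changes by day 3 were 2.87 ± 0.25 (adjusted p = 1.82e-07) and 2.92 ± 0.22 (adjusted p = 4.09e-08).

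*Wnt3* and *Wnt10b* rose between day 1 and day 3. *Wnt3*, the ligand required to form the primitive streak, was at 2.25 and 0.661 TPM in wild-type cells at day 0, at 0.929, 0.759 and 0.716 TPM at day 1, then 4.71, 6.39 and 5.73 TPM by day 3, a rise of 1.5 ± 0.25 from day 0 (adjusted p = 0.00012). The knockout libraries had 0.0704, 0.340 and 0.0706 TPM, then 0.552, 0.329 and 0.562 TPM, then 6.86, 5.85 and 6.29 TPM, a rise of 2.67 ± 0.22 (adjusted p = 1.01e-07). The day 3 values of the genotypes overlap and the day 0 values do not. *Wnt10b*, which is known for favouring bone over fat, had at most 0.298 TPM in any library before day 3. At day 3 it had 5.46, 5.90 and 6.62 TPM in wild-type cells, with 5.07, 6.76 and 6.19 TPM in the knockout. From day 0 this was 2.67 ± 0.20 (adjusted p = 3.3e-08) and 2.69 ± 0.18 (adjusted p = 8.24e-09), with overlap between the genotypes at each day.

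*Wnt11* and *Wnt7b* moved over narrower ranges. *Wnt11*, which guides cell movements without β-catenin, was at 5.26 and 4.26 TPM in wild-type cells at day 0, at 1.43, 1.28 and 1.86 TPM at day 1, then 5.80, 5.62 and 4.99 TPM by day 3. Its levels in the knockout were 2.83, 2.07 and 1.78 TPM, then 3.33, 1.86 and 1.44 TPM, then 4.63, 3.63 and 3.09 TPM. The dip at day 1 was called in wild-type cells, where it fell by 1.19 ± 0.24 (adjusted p = 0.0013), and in knockout cells the change was -0.04 ± 0.21 (adjusted p = 0.938). The test of that difference between the genotypes gave 1.15 ± 0.32 (adjusted p = 0.0796). *Wnt7b*, which acts in lung and placenta, had 1.45 and 1.94 TPM in wild-type cells at day 0, 0.718, 0.867 and 0.674 TPM at day 1, then 3.57, 3.54 and 3.17 TPM by day 3. In knockout cells it had 4.82, 4.19 and 4.25 TPM, then 3.94, 4.39 and 3.37 TPM, then 4.98, 6.18 and 5.34 TPM. Its rise from day 1 to day 3 was called in wild-type cells at 1.34 ± 0.14 (adjusted p = 2.36e-06), while no day differed by 2-fold from another in knockout cells.

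Of the lower ligands, *Wnt3a*, used to support self-renewal in culture, fell with RA. Its mean went from 1.88 ± 0.456 TPM (n = 2) to 0.291 ± 0.202 at day 1 and 0.105 ± 0.0416 at day 3 (n = 3) in wild-type cells, and from 1.64 ± 0.510 to 0.289 ± 0.207 and 0.0257 ± 0.0445 in knockout cells, which is 0 or 1 read per knockout library at day 3. The decrease by day 3 was -1.37 ± 0.23 (adjusted p = 0.000122) and -1.34 ± 0.20 (adjusted p = 5.03e-05), and at day 1 in wild-type cells it was -1.16 ± 0.23, or -1.0 without wild-type day 0 replicate 1, which is under 2-fold. In knockout cells at day 1 the change was -1.03 ± 0.20, or -0.88 without day 0 replicate 3 and -0.90 without day 1 replicate 2. *Wnt8a*, a ligand of the primitive streak, rose to a peak in wild-type cells at day 1, with 4.69 ± 0.166 TPM against 1.51 ± 0.205 at day 3, and its level at day 1 was 2.04 ± 0.34 above day 0 (adjusted p = 0.000251). The fall from day 1 to day 3 in wild-type cells was not called with a pseudocount of 0.1 (-1.58, adjusted p = 0.141). The knockout had 1.89 ± 0.0775 TPM at day 1, with a rise of 1.11 ± 0.30 (adjusted p = 0.0127) that was 0.90 without day 0 replicate 3, and its rise by day 3 (1.05 ± 0.30) was 0.84 without day 0 replicate 3 and 0.74 without day 3 replicate 2, with an adjusted p of 0.0658 from only the libraries compared. *Wnt5a* and *Wnt7a* rose by day 3 in both genotypes, to at most 2.82 and 3.30 TPM. *Wnt2* rose to 1.19 ± 0.321 TPM at day 1 in wild-type cells, a change of 1.05 ± 0.21 (adjusted p = 0.00118) that was 0.98 without day 0 replicate 1, 0.94 without day 1 replicate 1 and 0.53 under quantile normalization (adjusted p = 0.0589). *Wnt2b* and *Wnt10a* were not called in any comparison. The 2 wild-type libraries of day 0 had 0 and 8.69 TPM of *Wnt10a*, a spread as wide as any change it could show.

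**Figure D2:**
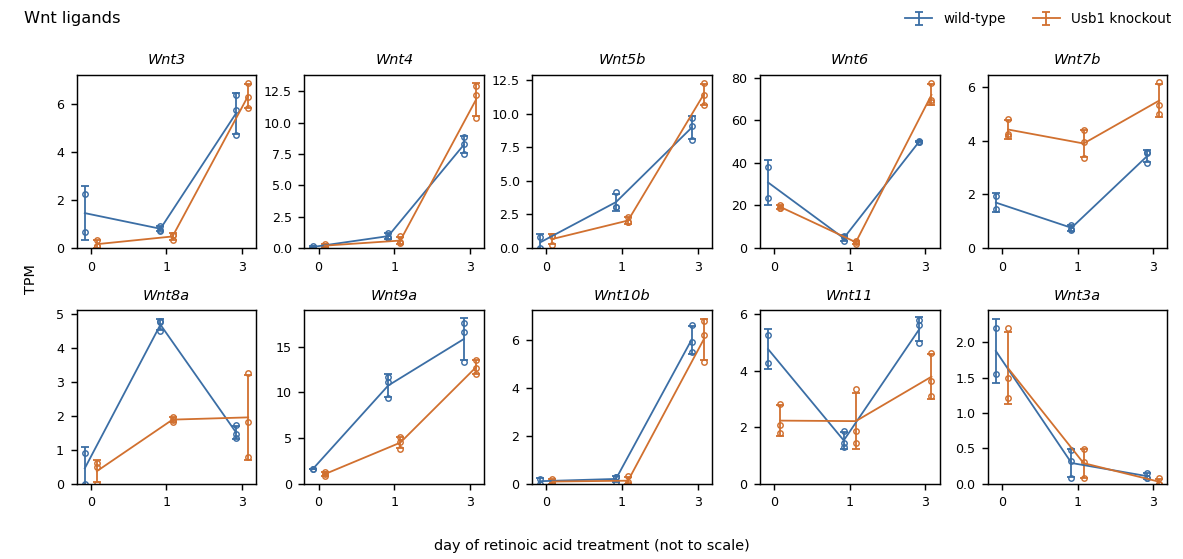
TPM of 10 Wnt ligands against the day of RA treatment (days evenly spaced, not to scale) in wild-type (blue) and *Usb1* knockout cells (orange). Open circles are libraries, lines join group means and bars are the SD (n = 2 for wild-type cells at day 0, otherwise n = 3). *Wnt6* dips at day 1 in both genotypes, *Wnt10b* stays near 0 until day 3, and knockout values of *Wnt7b* lie above wild-type values at each day.

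All 10 Frizzled receptors were tested. In wild-type cells at day 3 against day 0, 6 rose (*Fzd1*, *Fzd2*, *Fzd4*, *Fzd6*, *Fzd7* and *Fzd8*), 3 fell (*Fzd5*, *Fzd9* and *Fzd10*) and *Fzd3* was not called. In knockout cells 7 rose, *Fzd3* among them, *Fzd5* and *Fzd9* fell, and *Fzd10* was not called. Their summed level was 456 ± 2.05 TPM at day 0 (n = 2), 586 ± 51.2 at day 1 and 1341 ± 58.2 at day 3 in wild-type cells (n = 3), and 419.6 ± 44.3, 413 ± 41.2 and 1318 ± 144 TPM in knockout cells (n = 3). The receptor that led the sum changed with RA. *Fzd5* held 51.8% of Frizzled TPM in wild-type cells at day 0, 9.94% at day 1 and 1.73% at day 3, and in knockout cells 44.2%, 10.5% and 1.52%. *Fzd7* went from 28.6% to 65.6% and 56.6% in wild-type cells, and from 40.0% to 65.5% and 58.9% in knockout cells. *Fzd2* went from 1.28% to 28.1% and from 2.56% to 27.5% between day 0 and day 3.

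*Fzd5*, a receptor needed for blood vessels of the yolk sac, was at 233 and 241 TPM in wild-type cells at day 0, at 64.1, 56.1 and 54.5 TPM at day 1, then 24.0, 20.9 and 24.7 TPM by day 3. The knockout libraries had it at 206, 172 and 177 TPM, then 48.8, 44.3 and 37.1 TPM, then 18.7, 22.3 and 19.1 TPM. It fell at each step without overlap between days, by 3.30 ± 0.12 on the log2 scale by day 3 in wild-type cells (adjusted p = 1.53e-11) and by 3.14 ± 0.11 in knockout cells (adjusted p = 6.09e-12). Antisense exons of another annotated gene cover 17.8% of its exon bases, and whether strand was used in counting is not given in the sources used here. *Fzd10* was at 54.9 and 50.1 TPM in wild-type cells at day 0, at 58.5, 46.8 and 43.6 TPM at day 1, then 9.64, 9.88 and 12 TPM by day 3. Knockout cells had 29.4, 26.1 and 30.1 TPM, then 31.6, 26.1 and 23.4 TPM, then 14.3, 14.5 and 12.7 TPM. Thus wild-type cells started above knockout cells and ended below them, with no overlap at any day. By day 3 it fell by 2.22 ± 0.14 in wild-type cells (adjusted p = 5.64e-09), and the change in knockout cells, -0.99 ± 0.13, was just under 2-fold (adjusted p = 8.92e-06). *Fzd9* had 7.49 and 7.48 TPM at day 0, 3.07, 5.09 and 3.94 TPM at day 1, then 2.26, 1.75 and 0.809 TPM by day 3 in wild-type cells. In knockout cells it had 6.99, 6.76 and 6.44 TPM, then 6.20, 5.92 and 5.44 TPM, then 1.27, 1.69 and 1.11 TPM, and by day 3 it fell by 1.74 ± 0.23 (adjusted p = 1.3e-05) and fell by 1.72 ± 0.20 (adjusted p = 4.6e-06).

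*Fzd7* and *Fzd2* rose to the highest levels. *Fzd7*, known as the main Frizzled of self-renewing stem cells, was at 131 and 129.8 TPM in wild-type cells at day 0, at 418, 378 and 358 TPM at day 1, then 783, 705 and 789 TPM by day 3. Its knockout values were 193, 159.8 and 151 TPM, then 298, 270.1 and 245 TPM, then 707, 899 and 726 TPM. Knockout cells were above wild-type cells at day 0 and below them at day 1 without overlap, and mixed with them at day 3. By day 3 it rose by 2.53 ± 0.12 in wild-type (adjusted p = 2.59e-10) and 2.20 ± 0.11 in knockout cells (adjusted p = 2.98e-10). *Fzd2*, a receptor used by *Wnt5a*, had 3.83 and 7.89 TPM in wild-type cells at day 0, 51.9, 45.9 and 47.9 TPM at day 1, then 381, 368 and 381 TPM by day 3. Its levels in the knockout were 12.5, 10.1 and 9.72 TPM, then 36.2, 32.5 and 33.3 TPM, then 365, 387 and 333 TPM. The order of the genotypes was the same as for *Fzd7*, with knockout above wild-type at day 0 and below it at day 1. The rise of *Fzd2* by day 3 was 5.85 ± 0.18 in wild-type cells (adjusted p = 2.63e-12) and 4.95 ± 0.16 in knockout cells (adjusted p = 3.54e-12).

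*Fzd4*, *Fzd6* and *Fzd8* were also higher by day 3. *Fzd4*, also the receptor of Norrin in retinal vessels, was at 1.81 and 2.45 TPM, then 9.42, 7.65 and 6.98 TPM, then 34.2, 29.6 and 36.5 TPM in wild-type cells at days 0, 1 and 3, and at 2.19, 1.84 and 1.58 TPM, then 4.67, 6.0 and 3.88 TPM, then 26.9, 31.6 and 28.1 TPM in knockout cells. It rose by 3.46 ± 0.17 (adjusted p = 4.52e-10) and 3.38 ± 0.16 (adjusted p = 1.52e-10) by day 3, and the rise of 1.02 ± 0.16 at day 1 in knockout cells was 0.94 without day 0 replicate 3 and 0.88 without day 1 replicate 2. *Fzd6*, a receptor of planar polarity, had 10.1 and 11.5 TPM, then 14.3, 11.6 and 12.2 TPM, then 55.8, 51.7 and 55.3 TPM in wild-type cells, and 11.5, 10.2 and 8.24 TPM, then 12.7, 11.1 and 11.0 TPM, then 35.1, 42.0 and 41.3 TPM in knockout cells. Its rises by day 3 were 2.23 ± 0.13 (adjusted p = 2.28e-09) and 1.89 ± 0.12 (adjusted p = 3.67e-09), with wild-type above knockout at day 3 without overlap. *Fzd8*, a receptor that also binds *Wnt3a*, had 4.75 and 2.29 TPM, then 7.29, 6.09 and 5.99 TPM, then 61.7, 61.8 and 52.0 TPM in wild-type cells, and 3.63, 3.19 and 3.89 TPM, then 6.47, 5.51 and 6.08 TPM, then 48.6, 60.6 and 48.9 TPM in knockout cells. It rose by 3.77 ± 0.19 (adjusted p = 4.64e-10) and 3.55 ± 0.17 (adjusted p = 2.32e-10), and the genotypes overlapped at each day.

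*Fzd1* and *Fzd3* reached lower levels. *Fzd1* was at 2.59 and 0.861 TPM, then 6.28, 4.20 and 5.61 TPM, then 12.7, 15.0 and 12.4 TPM in wild-type cells, and at 1.19, 1.15 and 1.76 TPM, then 5.15, 3.19 and 4.07 TPM, then 9.97, 14.6 and 12.3 TPM in knockout cells. By day 3 it rose by 2.47 ± 0.26 (adjusted p = 1.64e-06) and 2.48 ± 0.24 (adjusted p = 4.35e-07), with overlap of the genotypes at each day. Its rise at day 1 was 1.29 ± 0.26 in wild-type cells, or 0.81 without day 0 replicate 2 and with an adjusted p of 0.0823 from only the libraries compared, and 1.11 ± 0.24 in knockout cells, or 0.97 without day 1 replicate 1. *Fzd3*, which acts with *Fzd6* in planar polarity, had 5.61 and 4.97 TPM, then 11.0, 7.66 and 7.09 TPM, then 10.4, 11.0 and 11.2 TPM in wild-type cells, and 3.87, 3.07 and 3.88 TPM, then 6.06, 6.03 and 4.78 TPM, then 7.82, 10.6 and 11.6 TPM in knockout cells. The rise by day 3 was called in knockout cells at 1.25 ± 0.17 (adjusted p = 1.72e-05) and was 0.92 ± 0.19 in wild-type cells, under 2-fold, and the difference between these was 0.33 ± 0.25 (adjusted p = 0.481).

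The coreceptors *Lrp5* and *Lrp6* were not called in any comparison. *Lrp5* ranged from 47.6 to 74.7 TPM and *Lrp6* from 31.7 to 53.0 TPM over the 17 libraries. At day 3 against day 0 the interval of the change (95%) was 0.13 to 0.68 for *Lrp5* and -0.13 to 0.50 for *Lrp6* in wild-type cells, so no change as large as 2-fold lies within it.

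**Figure D3:**
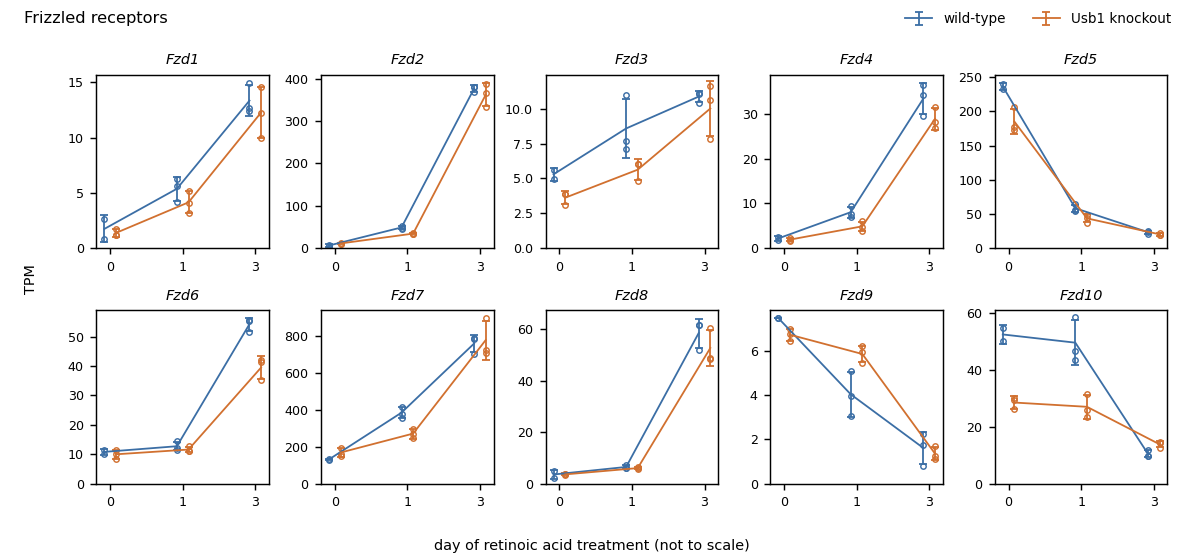
TPM of the 10 Frizzled receptors against the day of RA treatment (days evenly spaced, not to scale) in wild-type (blue) and *Usb1* knockout cells (orange). Open circles are libraries, lines join group means and bars are the SD (n = 2 for wild-type cells at day 0, otherwise n = 3). *Fzd5* drops from over 170 TPM to under 25 TPM while *Fzd7* and *Fzd2* climb, and the lines of *Fzd10* cross.

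In the group of R-spondins and receptor turnover, 2 of the 5 tested genes rose by day 3 in each genotype. *Rnf43*, a ubiquitin ligase that removes Frizzled and is itself a target of the pathway, was at 0.958 and 0.275 TPM in wild-type cells at day 0, at 1.04, 1.23 and 0.940 TPM at day 1, then 11.6, 11.1 and 12.1 TPM by day 3. Knockout libraries gave 0.495, 0.255 and 0.265 TPM, then 1.10, 0.773 and 0.878 TPM, then 5.52, 9.27 and 6.91 TPM. All day 3 libraries lay above all earlier ones, with wild-type above knockout at day 3. It rose by 3.00 ± 0.22 (adjusted p = 3.08e-08) and 2.60 ± 0.20 (adjusted p = 3.91e-08). Its partner *Znrf3* was not called in any comparison and ranged from 8.06 to 18.2 TPM. *Rspo3*, the R-spondin of early vessels and placenta, was listed at 0 in both wild-type libraries at day 0 and at 1.74 ± 0.711 TPM at day 3, at least 7.93-fold higher when 3 reads are taken as the limit a value of 0 allows in replicate 2. In knockout cells it went from 0.0686 ± 0.0678 to 2.15 ± 0.310 TPM (adjusted p = 1.92e-05). *Rspo1* stayed between 1.67 and 6.35 TPM and *Rspo4* at or under 1.16 TPM, and neither was called.

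The secreted antagonists exchanged places with RA. Of 8 tested, 4 rose in wild-type cells by day 3 (*Dkk1*, *Dkk3*, *Sfrp5* and *Frzb*) and 3 fell (*Sfrp1*, *Sfrp4* and *Notum*), and in knockout cells 3 rose (*Dkk1*, *Dkk3* and *Sfrp5*) and the same 3 fell. Their summed level was 273 ± 6.35 TPM at day 0 (n = 2), 198 ± 14.1 at day 1 and 330.4 ± 8.01 at day 3 in wild-type cells (n = 3), and 323 ± 26.4, 237 ± 23.5 and 322 ± 2.99 TPM in knockout cells (n = 3). *Sfrp1* held 76.2% of it at day 0, 66.2% at day 1 and 8.65% at day 3 in wild-type cells, against 82.6%, 76.8% and 21.7% in knockout cells. At day 3 in wild-type cells *Sfrp5* held 31.2%, *Dkk3* 28.2% and *Dkk1* 27.3%, and in knockout cells these held 11.1%, 17.1% and 43.6%.

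*Dkk1*, which blocks *Lrp5* and *Lrp6* and is a known target of the pathway, had the widest rise of the members on the log2 scale. In wild-type cells it was at 0 and 0.186 TPM at day 0, at 1.54, 1.66 and 2.63 TPM at day 1, then 88.6, 94.3 and 87.8 TPM by day 3. Knockout libraries had 0, 0 and 0.268 TPM, then 0.175, 0.167 and 0.395 TPM, then 145, 129.5 and 147 TPM. Wild-type cells were ahead at day 1 and knockout cells at day 3, without overlap at either. By day 3 it rose by 6.39 ± 0.17 in wild-type (adjusted p = 8.45e-13) and 7.03 ± 0.16 in knockout cells (adjusted p = 8.17e-14), and at day 1 by 1.42 ± 0.17 in wild-type cells (adjusted p = 1.81e-05) and by 0.20 ± 0.16 in knockout cells, which was not called (adjusted p = 0.401). Under quantile normalization the wild-type value at day 1 was 0.95, under 2-fold. *Dkk3*, a family member that does not bind the coreceptors in the same way, was at 5.30 and 5.31 TPM, then 12.3, 10.1 and 10.6 TPM, then 104, 82.2 and 93.9 TPM in wild-type cells, and at 7.67, 7.54 and 4.39 TPM, then 8.65, 5.91 and 4.57 TPM, then 51.6, 60.1 and 53.8 TPM in knockout cells. It rose by 3.90 ± 0.22 (adjusted p = 1.63e-09) and 2.93 ± 0.20 (adjusted p = 9.8e-09), with wild-type above knockout at days 1 and 3. *Dkk2* was listed at 0 in all libraries of days 0 and 1 and reached 0.350 to 0.889 TPM at day 3, and *Dkk4* was at or under 0.329 TPM.

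The Sfrp proteins bind Wnts through a domain like that of Frizzled. *Sfrp1* was at 213 and 203 TPM in wild-type cells at day 0, at 147, 123 and 124 TPM at day 1, then 28.3, 23.9 and 33.5 TPM by day 3. In knockout cells it was at 294, 248 and 259 TPM, then 204, 180.2 and 163 TPM, then 66.0, 72.6 and 70.5 TPM. Knockout libraries were above wild-type libraries at each day without overlap. By day 3 it fell by 2.83 ± 0.13 in wild-type (adjusted p = 1.4e-10) and by 1.92 ± 0.11 in knockout cells (adjusted p = 2.4e-09). *Sfrp5*, made by anterior visceral and foregut endoderm in the embryo, had 6.17 and 5.82 TPM in wild-type cells at day 0, 25, 26.8 and 24.8 TPM at day 1, then 104, 108 and 97.4 TPM by day 3. The knockout libraries had it at 5.47, 3.97 and 4.23 TPM, then 6.92, 8.0 and 6.46 TPM, then 43.0, 38.7 and 25.3 TPM, each group below the wild-type group of its day. It rose by 3.89 ± 0.17 by day 3 in wild-type cells (adjusted p = 1.44e-10) and by 2.70 ± 0.16 in knockout cells (adjusted p = 1.95e-09).

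*Sfrp4* fell to near 0. Its values were 10.7 and 10.5 TPM, then 3.37, 3.15 and 2.42 TPM, then 0, 0 and 0.0555 TPM in wild-type cells, and 6.27, 5.31 and 8.88 TPM, then 3.60, 3.10 and 3.03 TPM, then 0.185, 0.109 and 0.305 TPM in knockout cells, with decreases by day 3 of -3.51 ± 0.20 (adjusted p = 1.6e-09) and -2.68 ± 0.18 (adjusted p = 7.85e-09). *Sfrp2* peaked at day 1 instead, at 9.14 and 6.71 TPM, then 17.6, 19.4 and 15.7 TPM, then 5.42, 5.30 and 5.71 TPM in wild-type cells, and at 11.5, 10.2 and 11.6 TPM, then 25.8, 26.2 and 23.2 TPM, then 10.4, 11.0 and 11.4 TPM in knockout cells. Knockout libraries lay above wild-type libraries at each day. The rise to day 1 was 1.06 ± 0.12 in wild-type cells (adjusted p = 1.15e-05), 0.87 without day 0 replicate 2, 0.99 without day 1 replicate 2 and 0.93 under quantile normalization, and 1.11 ± 0.11 in knockout cells (adjusted p = 3.47e-06). *Notum*, an enzyme that strips the lipid from Wnts, fell. It was at 33.0 and 36.8 TPM, then 7.12, 6.97 and 7.5 TPM, then 6.55, 7.81 and 6.84 TPM in wild-type cells, and at 27.0, 26.7 and 26.1 TPM, then 12.5, 10.9 and 13.2 TPM, then 6.03, 7.66 and 8.13 TPM in knockout cells. In wild-type cells it fell by 2.13 ± 0.12 at day 1 (adjusted p = 8.61e-09), when knockout cells were at -1.07 ± 0.11 (adjusted p = 3.94e-06). Without knockout day 1 replicate 2 the latter was -0.998, just under 2-fold. Antisense exons of *Notumos* and *Myadml2os* cover 38.1% of the exon bases of *Notum*, so its reads cannot be told from theirs if strand was not used. The same caution holds for *Sfrp2* (16.1%, *Gm26771*), *Lef1* (13.7%, *Gm43352*) and *Rspo3* (13.1%, *Gm48159*). *Frzb*, listed at 0 in both wild-type libraries at day 0, reached 1.71 ± 0.285 TPM at day 3, at least 8.18-fold higher by the same limit as *Rspo3*.

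**Figure D4:**
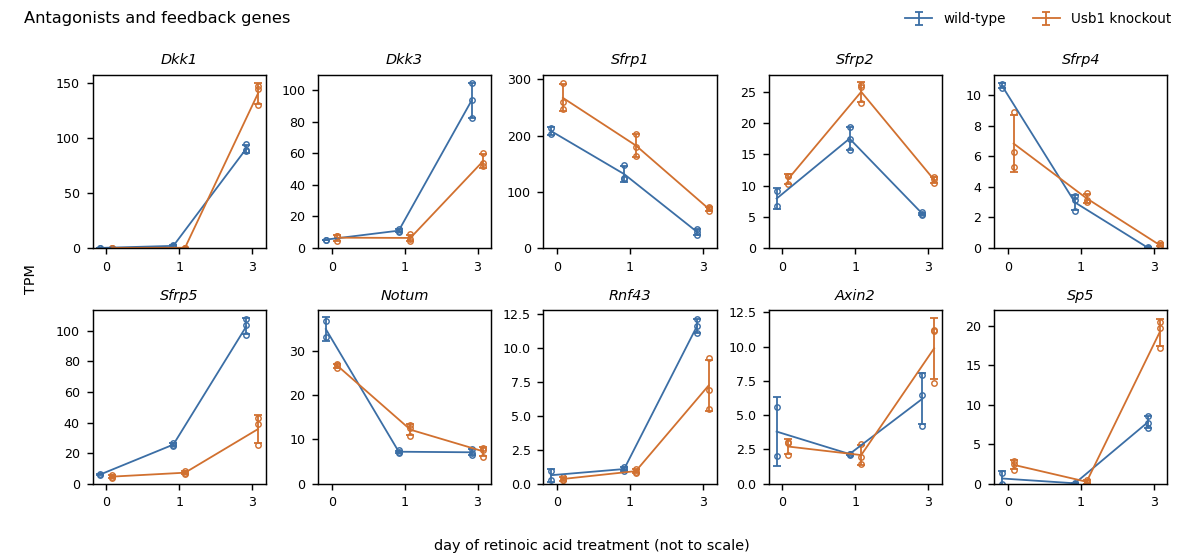
TPM of 10 antagonists and feedback genes against the day of RA treatment (days evenly spaced, not to scale) in wild-type (blue) and *Usb1* knockout cells (orange). Open circles are libraries, lines join group means and bars are the SD (n = 2 for wild-type cells at day 0, otherwise n = 3). Knockout values of *Sfrp5* and *Dkk3* lie below wild-type values at day 3, while those of *Dkk1*, *Sfrp1* and *Sp5* lie above.

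Of the 5 Axin, transcription factor and target genes, *Axin1*, the scaffold of the destruction complex, and *Tcf7*, a transcription factor of the pathway, were not called. *Axin1* ranged from 47.0 to 68.3 TPM and *Tcf7* from 31.7 to 50.8 TPM. *Axin2*, a target gene widely used as a readout of the pathway, was at 5.59 and 2.01 TPM in wild-type cells at day 0, at 2.20, 2.16 and 2.12 TPM at day 1, then 4.24, 6.45 and 7.92 TPM by day 3. Its knockout values were 3.03, 2.09 and 3.00 TPM, then 1.43, 2.87 and 1.95 TPM, then 7.32, 11.2 and 11.1 TPM. The day 0 values of wild-type cells overlap those of day 3, and in knockout cells day 3 stood above the other days. From day 0 to day 3 the change was called in knockout cells at 1.54 ± 0.29 (adjusted p = 0.00033) and was 0.66 ± 0.32 in wild-type cells (adjusted p = 0.0998), and the difference between these was 0.88 ± 0.43 (adjusted p = 0.241). From day 1 to day 3 it rose by 1.16 ± 0.29 in wild-type cells (adjusted p = 0.00408), or 0.98 without day 3 replicate 3, and by 1.82 ± 0.29 in knockout cells. *Sp5*, a direct target that represses other targets, had 0 and 1.29 TPM, then 0, 0.101 and 0 TPM, then 7.72, 7.04 and 8.62 TPM in wild-type cells, and 2.89, 2.49 and 1.76 TPM, then 0.202, 0.483 and 0 TPM, then 20.6, 19.7 and 17.2 TPM in knockout cells. It rose by 2.53 ± 0.29 (adjusted p = 3.07e-06) and 2.59 ± 0.26 (adjusted p = 7.01e-07) by day 3, after a fall to day 1 that was called in knockout cells (-1.46 ± 0.26, adjusted p = 0.000604). Without wild-type day 0 replicate 1 the rise in wild-type cells was 1.94. *Lef1* reached at most 1.19 TPM, and its rise from day 1 to day 3 in knockout cells, 1.01 ± 0.16, was called (adjusted p = 0.000146) but was 0.996 without day 1 replicate 1, 0.96 without day 3 replicate 2 and 0.93 under quantile normalization, all under 2-fold.

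Other genes of the pathway were followed as lists. By day 3, 16.1% of all genes tested rose and 9.68% fell in wild-type cells, and 13.8% rose and 8.04% fell in knockout cells. Of 17 tested genes of ligand secretion, coreceptors and modulators (22 listed), 11 rose and 1 fell by day 3 in wild-type cells, with a median log2 fold change of 1.62, and the same genes were called in the same direction in knockout cells (median 1.65). *Wls*, the carrier that takes Wnts to the cell surface, went from 1.73 ± 0.128 (n = 2) to 118 ± 2.24 TPM (n = 3) in wild-type cells and from 1.97 ± 0.327 to 127 ± 8.0 TPM in knockout cells. *Adgra2* and *Reck*, which together act as a receptor complex for *Wnt7a* and *Wnt7b*, went from 2.02 ± 1.62 to 118 ± 15.8 TPM and from 5.89 ± 1.09 to 95.1 ± 4.87 TPM in wild-type cells. The glypican *Gpc3* went from 30.8 ± 5.89 to 1004 ± 43.7 TPM. *Porcn*, which attaches the lipid to Wnts, fell from 46.4 ± 5.96 to 21.2 ± 2.96 TPM (-1.10 ± 0.15, adjusted p = 1.55e-05). Between the genotypes 1 of the 17, *Ptk7*, was called, lower in the knockout at day 1, beside 1.76% of all genes.

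Of 31 intracellular genes, all tested, 8 rose and 1 fell by day 3 in wild-type cells (median 0.56), beside 16.1% and 9.68% of all genes. In knockout cells 12 rose and 0 fell (median 0.58), beside 13.8% and 8.04%. *Dact1*, a binding partner of Dishevelled, went from 1.65 ± 0.293 to 38.4 ± 1.36 TPM in wild-type cells, and the corepressor *Tle4* fell from 141 ± 5.55 to 51.3 ± 1.74 TPM. None of the 31 was called between the genotypes at any day, beside 0.462% to 1.76% of all genes in each direction. Of 12 planar polarity genes, 3 rose and 2 fell by day 3 in each genotype (medians 0.03 and 0.11), beside the same day 3 shares of all genes. *Prickle1* led them, at 0.598 ± 0.845 and 67.1 ± 3.56 TPM at days 0 and 3 in wild-type cells. It was called higher in the knockout at day 0 (1.39, adjusted p = 0.00256), beside 1.6% of all genes. The 2 wild-type libraries of day 0 had an SD above their mean, and fits of *Prickle1* without single libraries are not given here. Of 16 tested β-catenin target genes (19 listed), 5 rose and 5 fell in wild-type cells by day 3 (median 0.15). In knockout cells 4 rose and 3 fell (median 0.47), and the day 3 shares of all genes are those given above. *Msx2* rose from 1.22 ± 0.908 to 61.1 ± 2.23 TPM in wild-type cells, while *Ccnd1*, cyclin D1, fell from 113 ± 9.65 to 6.67 ± 1.09 TPM. In the knockout *Msx1* and *Sp8* were lower at day 1 (-2.36, adjusted p = 2.27e-07, and -1.38, adjusted p = 0.000537), beside 1.76% of all genes. *Ccnd1* was higher at day 3 (1.64, adjusted p = 2.75e-07), beside 0.521%. No other of the 16 was called between the genotypes at any day.

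Knockout and wild-type cells were then compared at each day, and 3, 4 and 3 of the 45 tested members were called at days 0, 1 and 3. At day 0 the knockout had 2 members higher (*Wnt7b* and *Sp5*) and 1 lower (*Wnt3*), beside 1.6% and 1.45% of all genes, with a median of -0.11 over the members and 0.00 over all genes. At day 1 there was 1 higher (*Wnt7b*) and 3 lower (*Dkk1*, *Sfrp5* and *Wnt9a*), beside 0.462% and 1.76%, with medians of -0.26 and -0.13. At day 3 there were 2 higher (*Sfrp1* and *Sp5*) and 1 lower (*Sfrp5*), beside 0.521% and 0.773%, with medians of 0.03 and 0.00.

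The calls at day 0 rest on few libraries. *Wnt7b* was at 4.42 ± 0.348 TPM in knockout (n = 3) and 1.69 ± 0.342 TPM in wild-type cells (n = 2), a difference of 1.01 ± 0.16 (adjusted p = 0.00131), and without wild-type replicate 1 it was 0.88, under 2-fold. *Sp5* differed by 1.14 ± 0.29 (adjusted p = 0.021) and *Wnt3* by -1.01 ± 0.25 (adjusted p = 0.0187), and without wild-type replicate 1, in which *Sp5* was listed at 0, they were at 0.55 (adjusted p = 0.235) and -0.53 (adjusted p = 0.21). Leaving out knockout replicate 1 gave 0.96, 1.04 and -0.95 for *Wnt7b*, *Sp5* and *Wnt3*, none of them called. With only the libraries of day 0 the adjusted p was 0.102 for *Wnt7b*, 0.257 for *Sp5* and 0.219 for *Wnt3*. *Wnt7b* was at 0.97 under quantile normalization, and *Sp5* had an adjusted p of 0.0597 with a pseudocount of 0.1. Without knockout replicate 2 *Sp5* was at 1.11 (adjusted p = 0.0598), and without knockout replicate 3 *Wnt3* was at -0.95 (adjusted p = 0.0581). *Fzd10* differed by -0.86 ± 0.14 (adjusted p = 0.0017) and *Fzd2* by 0.84 ± 0.18 (adjusted p = 0.00893), both under 2-fold.

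At day 1 the knockout was lower in *Sfrp5*, *Dkk1* and *Wnt9a*, all of which rose with RA in wild-type cells. *Sfrp5* was at 7.13 ± 0.789 TPM in knockout and 25.5 ± 1.12 TPM in wild-type cells (n = 3 each), a difference of -1.71 ± 0.16 (adjusted p = 6.65e-06). *Dkk1* differed by -1.23 ± 0.16 (adjusted p = 0.000115), at 2 to 5 reads in the knockout libraries against 17 to 29 in the wild-type libraries. *Wnt9a* differed by -1.10 ± 0.14 (adjusted p = 0.000134), and by -0.90 under quantile normalization. *Wnt7b*, in the other direction, was at 3.90 ± 0.510 against 0.753 ± 0.101 TPM, higher by 1.48 ± 0.14 (adjusted p = 1.11e-05). The knockout was also below wild-type cells in 9 of the 10 Frizzled receptors, with a median of -0.46 beside -0.13 for all genes, and none of them reached 2-fold. With voom on reads recovered from TPM, 7 members rather than 4 were called at day 1. The share of all genes called with voom is not given here.

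At day 3 *Sfrp5* was still lower in the knockout, at 35.7 ± 9.23 TPM against 103 ± 5.21 TPM (n = 3 each), a difference of -1.54 ± 0.16 (adjusted p = 3.08e-05). Its relative *Sfrp1* was higher, at 69.7 ± 3.36 against 28.6 ± 4.81 TPM, by 1.27 ± 0.11 (adjusted p = 1.02e-05). *Sp5* was at 19.2 ± 1.74 against 7.79 ± 0.789 TPM, higher by 1.20 ± 0.26 (adjusted p = 0.0105), and with a pseudocount of 0.1 it was 1.29 (adjusted p = 0.452). Other members differed by less than 2-fold, with *Sfrp2* at 0.88 ± 0.11 (adjusted p = 0.000193), *Dkk1* at 0.63 ± 0.16 (adjusted p = 0.0227), and *Dkk3* at -0.75 ± 0.20 (adjusted p = 0.0323).

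**Figure D5:**
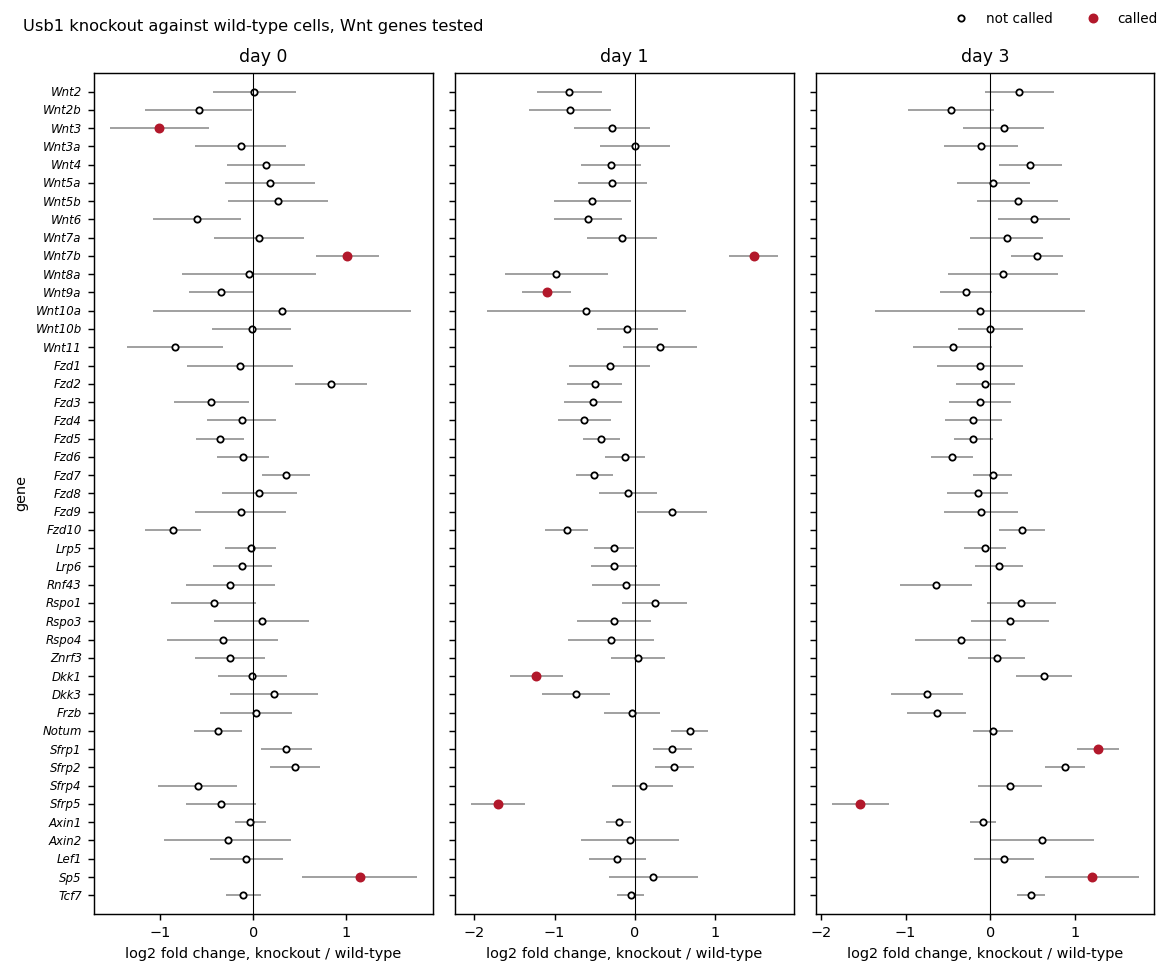
Log2 fold change of knockout against wild-type cells on the log2(TPM + 1) scale at day 0, 1 and 3 for the 45 tested members, with points for the limma estimate and lines for its interval (95%). Filled red points are called (adjusted p under 0.05 and at least 2-fold), open points are not. *Sfrp5* lies left of 0 and is called at days 1 and 3, and most Frizzled receptors lie left of 0 at day 1.

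Markers of endoderm moved with these differences. The summed level of the 8 endoderm markers was 18.4 to 20.1 TPM in knockout and 57.9 to 59.6 TPM in wild-type libraries at day 1, and 282 to 328 against 616 to 649 TPM at day 3. In the knockout 4 of the 8 were called lower at day 1 (*Foxa2*, *Dab2*, *Gata6* and *Amn*) and 5 at day 3 (*Dab2*, *Gata4*, *Ttr*, *Amn* and *Sox17*), with 0 higher. Of all genes, 1.76% and 0.773% were called lower at these days, and 0.462% and 0.521% were called higher. At day 1 *Afp* was listed at 0 in both genotypes and *Ttr* in the knockout, and none of the 8 was at 0 at day 3. At day 0 the endoderm markers summed to 4.69 to 9.95 TPM in knockout and 14.0 to 16.3 TPM in wild-type libraries. *Amn* of the 8 was called lower, beside 1.45% of all genes. Stem cell markers at day 1 summed to 3587 to 3678 against 2836 to 2922 TPM, with *Esrrb* called higher. The same markers summed to 509.9 to 578 TPM in knockout and 312 to 353 TPM in wild-type libraries at day 3, with *Nanog* and *Esrrb* of the 6 called higher. The sums at day 3 for mesoderm markers were 163 to 179 against 100.2 to 117 TPM. For neuroectoderm markers they were 134 to 156 against 101 to 111 TPM, and for fibroblast markers 71.7 to 80.3 against 44.5 to 54.2 TPM. Most of these genes were not called. Called higher at day 3 were 2 of 7 tested mesoderm markers (*Hand1* and *Meox1*), 0 of 4 neuroectoderm markers and 1 of 5 fibroblast markers (*Col3a1*), with 0 lower. Their part in the differences of *Sfrp5*, *Dkk1*, *Sfrp1* and the other members was not tested.

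Whether the change between days of RA treatment, here called the response, differed between the genotypes was tested as an interaction. From day 0 to day 1 the knockout response was above the wild-type response for 1 member (*Notum*) and below it for 3 (*Fzd2*, *Dkk1* and *Sfrp5*), beside 0.187% and 0.672% of all genes. From day 0 to day 3 it was above for 2 (*Wnt6* and *Fzd10*) and below for 1 (*Sfrp5*), beside 1.17% and 1.25%. From day 1 to day 3 it was above for 4 (*Dkk1*, *Wnt6*, *Fzd10* and *Wnt2*) and below for 0, beside 1.72% and 0.535%, and 17 members in either direction had an unadjusted p under 0.05, beside 21.3% of all genes. For *Dkk1* the values were of opposite sign, -1.22 ± 0.23 up to day 1 (adjusted p = 0.0176) and 1.86 ± 0.22 from day 1 to day 3 (adjusted p = 0.000172). Its difference from day 0 to day 3 was not called, and its knockout libraries at day 1 held 2 to 5 reads. The day 1 part was lost without wild-type day 0 replicate 1 (-1.10, adjusted p = 0.0648), under quantile normalization (-0.79, adjusted p = 0.127), with a pseudocount of 0.1 (adjusted p = 0.0986), with only the libraries compared (adjusted p = 0.0636) and with voom (adjusted p = 0.269). For *Fzd10* the difference by day 3 was 1.23 ± 0.19 (adjusted p = 0.00189), and it was called under every alternative.

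*Sfrp5* rose less in the knockout, with a difference of -1.37 ± 0.23 at day 1 (adjusted p = 0.00903) and of -1.19 ± 0.23 at day 3 (adjusted p = 0.00926), and without knockout day 3 replicate 3, its lowest library, the latter was -0.97, under 2-fold. With voom on recovered reads these were not called (adjusted p = 0.121 and 0.1), nor was the latter with only the libraries compared (adjusted p = 0.0581). *Fzd2* rose less by day 1 (-1.34 ± 0.24, adjusted p = 0.0123), and the value was -0.90 without wild-type day 0 replicate 1, with an adjusted p of 0.0626 from only the libraries compared. *Notum* fell less by day 1 (1.06 ± 0.16, adjusted p = 0.0051), and the value was 0.98 without wild-type day 0 replicate 2. For *Wnt6* the difference by day 3 was 1.12 ± 0.29 (adjusted p = 0.039), and the adjusted p was 0.0603 to 0.0871 when any 1 of 10 libraries was left out, with a value of 0.77 without wild-type day 0 replicate 2. It was also lost with a pseudocount of 0.1 (adjusted p = 0.0728), no filter on low values (adjusted p = 0.0616) and quantile normalization (adjusted p = 0.0644). The difference for *Wnt6* from day 1 to day 3 was 1.10 ± 0.28 (adjusted p = 0.0279), and it was 0.92 without knockout day 1 replicate 2 and 0.96 without wild-type day 1 replicate 2. This call was lost when any 1 of 6 libraries was left out (adjusted p of 0.0531 to 0.0771), under quantile normalization (0.95, adjusted p = 0.078) and with voom (adjusted p = 0.11). *Wnt2* differed from day 1 to day 3 by 1.16 ± 0.27 (adjusted p = 0.0172), at 2 to 16 reads per library, by 1.04 without wild-type day 1 replicate 1 (adjusted p = 0.0511), by 2.60 with a pseudocount of 0.1 (adjusted p = 0.0598) and by 0.98 under quantile normalization.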

How the data were processed

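R1/E mouse embryonic stem cells were profiled by bulk RNA sequencing in 17 libraries, 8 wild-type and 9 *Usb1* knockout. The labels name HISAT2 2.1.0, StringTie 1.3.6 and GRCm38.p6, and the authors deposited TPM values computed from gene length and the reads counted on each gene, so no read counts were used directly. Whether counting used strand is not given in the sources used here. TPM is scaled within each library, so a gene can move because others do. Genes were kept at 1 TPM or more in at least 2 libraries (21871 of 54532). Values were tested as log2(TPM + 1) with limma 3.58.1 in R 4.3.3, with 6 group means, a mean-dependent prior variance and Benjamini-Hochberg adjustment over all genes tested, in 12 comparisons. A call needed an adjusted p under 0.05 and at least 2-fold. The libraries are described as independent biological replicates. Same-numbered libraries did not deviate together (median correlation -0.0035 between groups), so numbers were not used to pair them.

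The members were chosen by symbol, and the members and the other gene lists were chosen with earlier results of these data known. Libraries were described one by one for ligands, receptors and antagonists with larger levels or changes, and other members by group mean or range. Symbols of 53921 of 54532 identifiers matched GENCODE M21, which also gave exon lengths. Reads recovered from TPM were whole within 0.01 for 95.9% to 96.7% of values per library, and limma voom on them was added after the data were seen. Alternatives were a pseudocount of 0.1, no filter, a filter of 5 TPM, quantile normalization, only the libraries compared, a replicate block, and each library left out. Code was tested on simulated data. Figures were drawn with matplotlib 3.10.9 from tables written with pandas 2.3.3 and numpy 2.4.6 under Python 3.11.15.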

Additional observations from a re-analysis of the deposited data

Results flagged for a closer look

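For 7 members the change between days of RA treatment was called different between the genotypes in limma's interaction test. The values below are the knockout change minus the wild-type change on the log2 scale. From day 0 to day 1 the differences were -1.34 for *Fzd2*, -1.22 for *Dkk1*, -1.37 for *Sfrp5* and 1.06 for *Notum*. From day 0 to day 3 they were 1.12 for *Wnt6*, 1.23 for *Fzd10* and -1.19 for *Sfrp5*. From day 1 to day 3 they were 1.16 for *Wnt2*, 1.10 for *Wnt6*, 1.22 for *Fzd10* and 1.86 for *Dkk1*. Of all genes, 0.187% were called above and 0.672% below from day 0 to day 1. These shares were 1.17% and 1.25% from day 0 to day 3, and 1.72% and 0.535% from day 1 to day 3. The calls of *Fzd2*, *Notum*, *Sfrp5*, *Wnt6* and *Wnt2* were each lost under at least 1 alternative. So was that of *Dkk1* from day 0 to day 1. No group had 4 or more libraries, so single libraries far from their group were not tested for.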

How the results depend on the processing

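Of 158 member changes called, 129 were called under every alternative that gave a value (the filter at 5 TPM kept 135 of the 158), 29 were lost under at least 1, and 0 were reversed. The number of members called in the knockout against wild-type cells at day 0 was 3, against 0 with only those libraries, 5 with voom and 0 to 5 when 1 library was left out (0 without wild-type replicate 1 or knockout replicate 1, 5 without wild-type replicate 2). At day 1 it was 4, against 7 with voom. For the genotype difference in the response from day 0 to day 1 it was 4, against 2 with only those libraries, 2 with voom and 2 to 9 when 1 library was left out. For that from day 0 to day 3 it was 3, against 5 with a pseudocount of 0.1, 6 with voom and 1 to 7 when 1 library was left out (1 without knockout day 3 replicate 3, 7 without wild-type day 0 replicate 2). For that from day 1 to day 3 it was 4, and 2 to 5 when 1 library was left out (2 without wild-type day 1 replicate 1). The replicate block ended 1 of the 158 calls, that of *Wnt6* in the genotype difference from day 0 to day 3 (1.09, adjusted p = 0.0688), and gave 18 rather than 17 calls for wild-type day 1 against day 0. Correlations of deviations between same-numbered libraries ran from -0.13 to 0.12, with 1 of 40 over 0.1. The shares of all genes called under the alternatives are not given here, and the cause of these shifts was not tested. Wild-type day 0 had 2 libraries, and 1 of them listed 21 of 53 members at 0.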
